A study of Mus musculus with 24 samples.

Results

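The members described here are 7 zinc-finger transcription factors of the immediate-early class, Egr1, Egr2, Egr3, Egr4, Klf2, Klf4 and Klf10, chosen by symbol from the 15232 genes of the deposited table. All 7 were in the table, and all 7 were among the 12572 genes tested, those with a mean of at least 1 FPKM (fragments per kilobase of gene, corrected for library size) over the 24 libraries. Members and the gene lists below were picked with earlier results of these data known. Their counts beside the share of all genes are therefore a description. The study asked how thrombospondins 1 and 2, matrix proteins secreted by astrocytes, bear on effort in goal-directed behaviour. Bulk poly(A) RNA of the whole anterior cingulate cortex, a frontal cortical area, was sequenced from 24 mice, 1 library per animal, with 4 females and 4 males in each of 3 arms. The first arm was untrained and labelled wild type (WT), the second was untrained and labelled Thbs1/2 knockout (KO), and the third was labelled Thbs1/2 KO and had been trained in Skinner boxes. Mice fed freely until training and were food deprived for it, so training and food deprivation cannot be told apart, and RNA of the study was collected within 1 hour of the end of behaviour. The labels give no age and no construct for the KO. Trained WT animals were not analysed here.

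Immediate-early genes are transcribed within minutes of a stimulus, before any new protein is made. In cortical neurons the Egr genes follow synaptic activity: calcium and MAP kinase signals act on serum response factor, which binds CArG boxes, and on CREB, which binds cAMP response elements (CRE), and the Egr proteins then bind GC-rich sites in later genes and are held in check by the corepressors Nab1 and Nab2. Klf2 and Klf4 are best known in the endothelium of blood vessels, where flow induces them through MEF2 factors, and Klf10 was named as an early gene of TGF-beta signalling.

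The starts of these genes are shown because the inputs just named are read there. Promoter windows of RefSeq (build GRCm38.p6) are shown for Egr2, Egr4, Klf2 and Klf4. Egr1, Egr3 and Klf10 are named only, and no window of theirs is described here. The windows lie directly upstream of the start of Egr2 at chr10:67537619-67537868 (plus strand), Egr4 at chr6:85513590-85513839 (minus strand), Klf2 at chr8:72318812-72319032 (plus strand) and Klf4 at chr4:55532476-55532725 (minus strand). Each is written 5′ to 3′ on the strand of the gene, 250 bases long apart from Klf2, whose last 29 bases before the RefSeq start are an annotated exon in GENCODE and are left out. Egr2 has 5 windows, and the one at the start of its first-named GENCODE transcript is shown. Capitals mark a CArG box or a CRE half-site (TGACG, or CGTCA on the other strand) in Egr2, CRE half-sites in Egr4 and Klf4, and a CRE half-site and a MEF2 box in Klf2.
Egr2: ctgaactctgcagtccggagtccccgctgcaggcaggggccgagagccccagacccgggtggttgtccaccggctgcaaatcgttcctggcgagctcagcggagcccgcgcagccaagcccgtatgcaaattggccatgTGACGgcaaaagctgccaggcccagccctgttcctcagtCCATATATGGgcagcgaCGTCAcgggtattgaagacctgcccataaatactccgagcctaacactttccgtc
Egr4: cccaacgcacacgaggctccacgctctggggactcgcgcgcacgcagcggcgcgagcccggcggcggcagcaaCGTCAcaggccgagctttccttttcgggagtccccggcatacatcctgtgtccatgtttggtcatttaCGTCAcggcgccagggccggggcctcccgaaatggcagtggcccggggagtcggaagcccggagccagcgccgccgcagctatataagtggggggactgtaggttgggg
Klf2: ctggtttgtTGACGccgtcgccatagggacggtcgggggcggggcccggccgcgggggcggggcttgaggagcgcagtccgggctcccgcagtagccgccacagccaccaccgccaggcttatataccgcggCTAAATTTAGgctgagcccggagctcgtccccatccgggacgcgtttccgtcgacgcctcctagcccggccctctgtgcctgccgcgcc
Klf4: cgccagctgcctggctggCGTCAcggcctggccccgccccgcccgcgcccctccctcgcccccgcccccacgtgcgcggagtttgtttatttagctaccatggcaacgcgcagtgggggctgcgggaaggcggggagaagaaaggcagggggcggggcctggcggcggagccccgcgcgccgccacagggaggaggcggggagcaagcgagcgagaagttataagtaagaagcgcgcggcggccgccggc

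Motifs were searched, and GC content taken, over both strands of the full 250 bases before the start, those of Klf2 that are not printed included, in these 4 genes and in all 32851 windows of that length. The CArG box of Egr2, at bases 72 to 63 before the start, was the single one among the 4 windows, and 1.47% of all windows hold one. The MEF2 box of Klf2, at bases 118 to 109, was also the single one, and 0.508% of all windows hold one. All 4 windows hold the CRE half-site TGACG, with 2 copies each in Egr2 and Egr4, against 17.8% of all windows, while none of the 4 holds the full CRE TGACGTCA (1.55% of all windows), which contains the half-site. An Egr site (GCGTGGGCG or GCGGGGGCG) was present in the windows of Klf2 and Klf4 and in 3.06% of all windows. The GC box GGGGCGGGG, which overlaps the Egr site in both genes, was present 2 times in Klf2, 3 times in Klf4 and in 10.4% of all windows. TATAAA was in none of the 4 windows and in 12.4% of all. The 4 windows had a GC content of 61.6% to 74.0%, against a median of 52.4%, and a match is a description of letters, not of binding.

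The targeted genes went against the labels. Thbs1 was at 0.254 to 0.716 FPKM in the libraries labelled WT, at 2.77 to 5.04 FPKM in the untrained libraries labelled KO and at 3.62 to 5.91 FPKM in the trained ones, and Thbs2 was likewise higher in all 16 libraries labelled KO. Every direction between genotypes therefore rests on the labels, and groups are called by them. Whole reads recovered from the FPKM came to 12898226 to 19991770 per library labelled WT, 12343773 to 27233267 per untrained library labelled KO and 16796512 to 20414047 per trained library. Untrained male library 3 labelled KO stood apart. It had the most reads, a summed level of 10 excitatory neuron markers of 985 FPKM (1688 to 2294 in the other 23 libraries), of 10 striatal markers of 916 FPKM (122 to 478 in the others, the highest in untrained male 1 labelled KO) and of 10 septal markers of 138 FPKM (9.08 to 15.0 in the others). For part of the results, values without it are given as well. All 8 trained animals carried an animal number over 1000 in the labels, as did untrained males 1 and 2 labelled KO and untrained male 1 labelled WT, and the other 13 animals had numbers under 1000. The labels do not say what the number marks. Among females, number and training cannot be told apart.

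FPKM are per length, so levels of different genes can be set side by side. Egr1, the most studied activity marker of the family, stood highest in all 24 libraries, at 74.1 to 223 FPKM with a median of 149 FPKM. Egr3, which the same signals induce, came next at 22.6 to 74.1 FPKM, and Klf10 followed at 7.95 to 23.5 FPKM. Egr2 (2.85 to 15.9 FPKM) and Egr4 (3.49 to 12.4 FPKM) were similar, and their mean ± SD ranges overlapped in each arm. Klf2 (1.34 to 4.59 FPKM) and Klf4 (1.19 to 3.88 FPKM) were lowest and overlapped likewise. In all 3 arms Egr1 lay above Egr3, and Egr3 above Klf10, in 8 of 8 libraries and beyond the mean ± SD. Klf10 lay beyond the spread of the next gene in both untrained arms. In the trained arm its mean ± SD overlapped that of Egr2, although it was the higher of these in 8 of 8 libraries. Fewer reads stood behind the lower genes: Egr1 rested on 3754 to 12989 recovered reads per library, Egr2 on 133 to 870, Klf4 on 57 to 212 and Klf2 on 35 to 161.

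**Figure D1:**
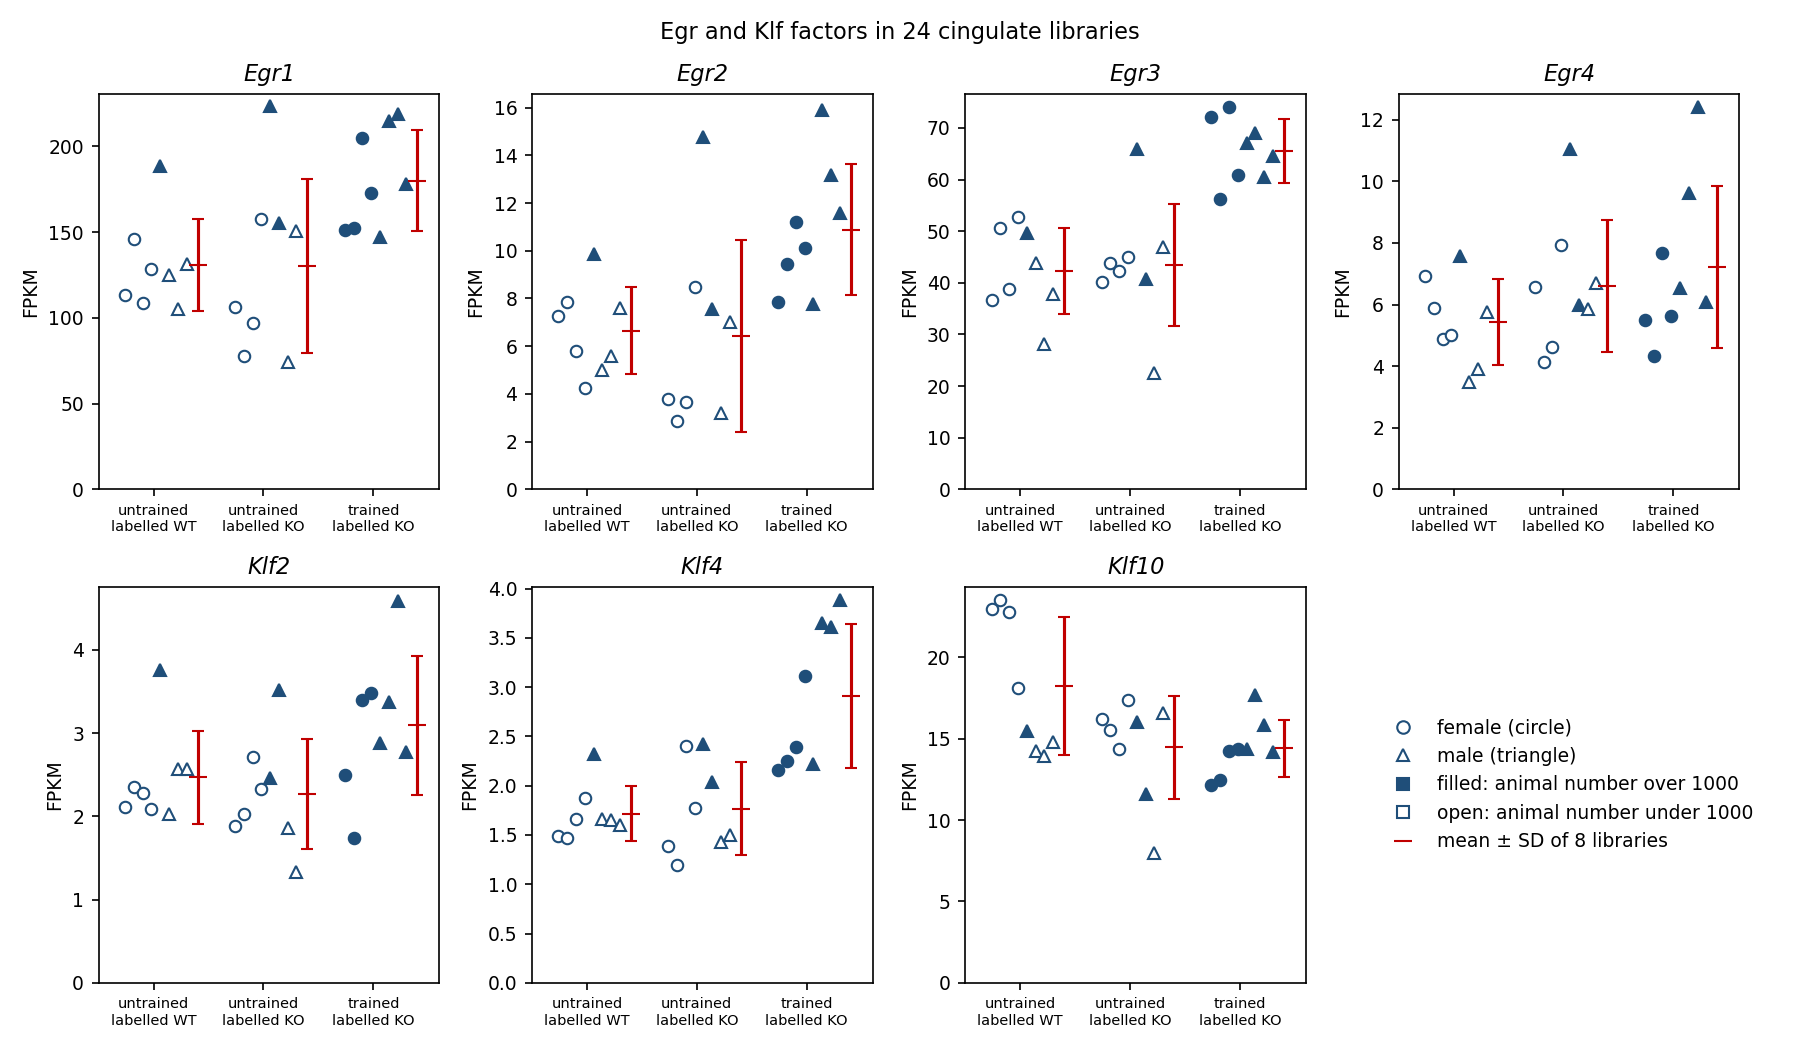
FPKM (y axis, linear from 0) of the 7 genes in each of the 24 libraries, by arm (x axis); circles are females, triangles males, filled symbols animals with numbers over 1000, and red bars the mean ± SD of 8 libraries. For Egr3 all 8 trained libraries, at 56.1 to 74.1 FPKM, lie above the libraries labelled WT. For every gene but Klf10 the highest untrained symbol is a filled triangle.

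The first comparison set trained against untrained animals within the libraries labelled KO, 8 against 8. Egr2, Egr3 and Klf4 were higher in the trained libraries, by 0.81, 0.63 and 0.49 on the log2(FPKM + 1) scale. These 3 of 7 members passed the test, all in the higher direction, against 5.67% of all genes tested (3.5% higher). Egr1 and Klf2 were higher by 0.54 and 0.32 without passing it, and Egr4 and Klf10 differed by 0.10 and 0.021. The arms overlapped for all 7 genes, as they did for all but 0.668% of genes in the higher direction, and 5 members had an unadjusted p under 0.05 (23.8% of all genes). The test was limma's moderated test on log2(FPKM + 1) with sex as a covariate and Benjamini-Hochberg adjustment over all genes tested, with a threshold of 0.05 throughout; changes on this scale understate those of low genes, Klf2 and Klf4 most.

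Egr3 was at 22.6, 43.0 and 65.9 FPKM (lowest, median, highest) in the untrained libraries labelled KO and at 56.1, 65.8 and 74.1 FPKM in the trained ones. Only untrained male 1, an animal numbered over 1000, reached into the trained range. The difference of 0.63 (SE 0.142, adjusted p = 0.0189) was called in 16 of 16 fits that each left out 1 library, and was 0.50 (adjusted p = 0.00360) without untrained male library 3.

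Egr2, best known from myelinating glia and also induced in active neurons, was at 2.85, 5.41 and 14.8 FPKM in the untrained libraries and at 7.78, 10.7 and 15.9 FPKM in the trained ones. Every trained library lay above the untrained mean of 6.42 ± 4.02 FPKM (SD, n = 8), and 1 lay above the highest untrained library. The difference of 0.81 (SE 0.229) passed narrowly, at an adjusted p of 0.0478. It stayed past the threshold in 3 of the 16 fits that left out 1 library, those without untrained male 1 (adjusted p = 0.0121), untrained female 4 or trained male 1, and lost the call in the other 13, with an adjusted p of up to 0.0951. Without untrained male library 3 it was 0.67 (adjusted p = 0.0526).

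Egr1 was at 74.1, 128 and 223 FPKM in the untrained libraries and at 147, 175 and 219 FPKM in the trained ones. The highest of all 24 values was that of an untrained animal, male 1 labelled KO. All 8 trained libraries exceeded the untrained mean of 130 ± 50.8 FPKM (SD, n = 8), and the difference of 0.54 (SE 0.184, adjusted p = 0.0900) did not pass. It passed in 1 of 16 fits that left out a library, that without untrained male 1, where the adjusted p was 0.0331. Without untrained male library 3 the difference was 0.41 (adjusted p = 0.0955, limma).

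Egr4 was at 4.12, 6.28 and 11.04 FPKM in the untrained libraries and at 4.32, 6.30 and 12.4 FPKM in the trained ones. The medians of the arms were nearly the same, and 3 of 8 trained libraries exceeded the untrained mean. The difference was 0.10 (SE 0.161, adjusted p = 0.746), lower in size than that of any other Egr gene.

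Klf4 was at 1.19, 1.64 and 2.42 FPKM in the untrained libraries and at 2.16, 2.75 and 3.88 FPKM in the trained ones, so that 4 of 8 trained libraries lay above all untrained ones. The difference of 0.49 (SE 0.112, adjusted p = 0.0189) was called in 16 of 16 fits that left out 1 library. Males reached the highest levels: trained males averaged 3.34 ± 0.756 FPKM and trained females 2.48 ± 0.432 FPKM (SD, n = 4 each), and the difference of the training effect between the sexes was 0.22 (SE 0.225, adjusted p = 0.667). Klf2, which shares many endothelial targets with Klf4, was at 1.34, 2.18 and 3.52 FPKM in the untrained libraries and at 1.74, 3.13 and 4.59 FPKM in the trained ones. Its difference of 0.32 (SE 0.136, adjusted p = 0.157) did not pass. Ly6c1 and Ly6a, surface proteins of brain endothelium in mice, passed with 0.49 and 0.36. They were 2 of the 10 endothelial markers tested, where 3.5% of all genes were higher. The summed level of those 10 markers was 49.3 to 74.2 FPKM in the untrained and 56.9 to 87.5 FPKM in the trained libraries, with no marker at 0. Of the 10 mural and fibroblast markers 1 passed, Pdgfrb at -0.28, and of the 10 astrocyte markers 1, Sox9 at -0.32. Both were lower, as were 2.17% of all genes. Among microglia, oligodendrocyte, excitatory neuron, inhibitory neuron and striatal markers 0 of 10 each passed. The part of the marker level in the Klf values was not tested, and in bulk tissue fewer cells of a type and less RNA per cell cannot be told apart.

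Klf10 was at 7.95, 15.8 and 17.4 FPKM in the untrained libraries and at 12.2, 14.3 and 17.7 FPKM in the trained ones. Its difference of 0.021 (SE 0.126, adjusted p = 0.942) became -0.091 without untrained male library 3, its lowest value. By sex, trained females were at 13.3 ± 1.15 against 15.9 ± 1.26 FPKM in untrained females and trained males at 15.5 ± 1.61 against 13.0 ± 4.07 FPKM in untrained males (SD, n = 4 each). The interaction of training and sex was 0.52 (SE 0.225, adjusted p = 0.282, limma) and did not pass, and it was 0.32 (SE 0.148, adjusted p = 0.255) without untrained male library 3. Klf10 was the 1 member of 7 below an unadjusted 0.05 there, against 15.5% of all genes. No member passed after adjustment in that interaction (0.00795% of all genes did), and none did where genotype label and sex interacted (0% of all genes).

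The second question was how far these values followed the animal number. Among the 8 untrained males, 3 had numbers over 1000 and 5 under 1000, with no difference in training between them. All 7 genes had higher fitted levels in the 3 males over 1000, with Egr2 at 0.85, Egr1 at 0.74, Egr3 at 0.57, Klf2 at 0.56, Egr4 at 0.49, Klf4 at 0.36 and Klf10 at 0.17 on the log2 scale. None of the 7 passed after adjustment, and neither did any of the 12572 genes tested (0%; 718 genes, or 5.71%, had an unadjusted p under 0.05 by limma). At an unadjusted p under 0.05 there were 5 members of 7, all but Egr3 and Klf10, and each of the 5 was higher, against 3.25% of all genes in that direction. Cell type markers differed in this contrast too, with 0 called: 10 of 10 excitatory neuron markers were above 0 (median 0.43, against 0.56 for the members and 0.011 for all genes), as were 9 of 10 oligodendrocyte (0.21) and 9 of 10 endothelial markers (0.13), and 0 of 10 striatal (-0.53), 0 of 10 microglia (-0.13) and 0 of 4 septal markers (-0.91). The summed excitatory markers stood at 2119 to 2240 FPKM in the 3 males over 1000, at 985 FPKM in untrained male 3 labelled KO and at 1982 to 2294 FPKM in the other 4 males under 1000. The marker medians by animal number include untrained male 3 labelled KO. The part of these marker levels in the members' values was not tested.

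Egr1 was at 223, 156 and 189 FPKM in the 3 untrained males over 1000 (male 1 and male 2 labelled KO and male 1 labelled WT, in this order throughout) and at 74.1 to 151 FPKM in the 5 under 1000, with no overlap. Klf4 was at 2.42, 2.04 and 2.32 FPKM in the former and at 1.43 to 1.66 FPKM in the latter, again with no overlap. These 2 of 7 members compare with 2.27% of all genes whose 3 males over 1000 lay above all 5 others. Their unadjusted p was 0.0114 for Egr1 and 0.00221 for Klf4, with an adjusted p of 0.761 for both (limma). Klf2 was at 2.46, 3.52 and 3.76 FPKM against 1.34 to 2.57 FPKM, overlapping through male 1 labelled KO (unadjusted p = 0.00205, adjusted p = 0.761). Egr2 was at 14.8, 7.56 and 9.88 FPKM against 3.21 to 7.58 FPKM, overlapping through male 2 labelled KO (unadjusted p = 0.0138, adjusted p = 0.761). Klf10 was at 16.1, 11.6 and 15.5 FPKM against 7.95 to 16.6 FPKM, inside the range of the others.

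Without untrained male library 3, which is on the side under 1000, the difference fell from 0.74 to 0.49 for Egr1, from 0.85 to 0.59 for Egr2 and from 0.57 to 0.31 for Egr3. Klf4 stood at 0.35 and Klf2 at 0.62 without it. Klf10 changed sign, to -0.070.

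The 3 untrained males over 1000 can be placed against the trained animals. For Egr1, 2 of the 3 were within the range of the 8 trained libraries and 1 was above it, while 11 of the 13 untrained libraries under 1000 were below that range. For Egr2, 2 of the 3 were within the trained range and 1 was below it, against 11 of 13 below. For Egr3, 1 of the 3 was within the trained range and 2 were below it, and all 13 libraries under 1000 were below it. For Klf4, 2 of the 3 were within the trained range and 1 below, against 12 of 13 below. For the other members the trained range also held most animals under 1000: all 3 males over 1000 were within it for Egr4 and Klf2, as were 10 and 12 of the 13 under 1000, and for Klf10 it held 2 of the 3 and 8 of the 13.

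The difference between trained and untrained libraries labelled KO was therefore fitted again with the side of 1000 as a covariate. It became -0.022 (SE 0.264) for Egr1, 0.10 (SE 0.328) for Egr2, 0.028 (SE 0.215) for Klf2, -0.046 (SE 0.274) for Egr4 and 0.043 (SE 0.216) for Klf10. Klf4 was at 0.33 (SE 0.187) and Egr3 at 0.25 (SE 0.214). No member passed, with adjusted p-values of 0.565 to 0.987, and neither did any of the 12572 genes (0%; 1306, or 10.4%, had an unadjusted p under 0.05 by limma). Within the males over 1000, 4 trained against 2 untrained, the differences were 0.41 (SE 0.171, unadjusted p = 0.0416, adjusted p = 0.457) for Klf4, 0.32 (SE 0.162, adjusted p = 0.516) for Egr3 and 0.0080 (SE 0.189, adjusted p = 0.991) for Egr1. That fit called 0 genes as well (0%), with 1320 (10.5%) below an unadjusted 0.05. Both fits rest on untrained males 1 and 2 labelled KO, the only untrained libraries of that label with numbers over 1000. Without these 2 animals, training and number cannot be told apart among the libraries labelled KO. The 2 were at 223 and 156 FPKM for Egr1 and at 14.8 and 7.56 FPKM for Egr2.

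**Figure D2:**
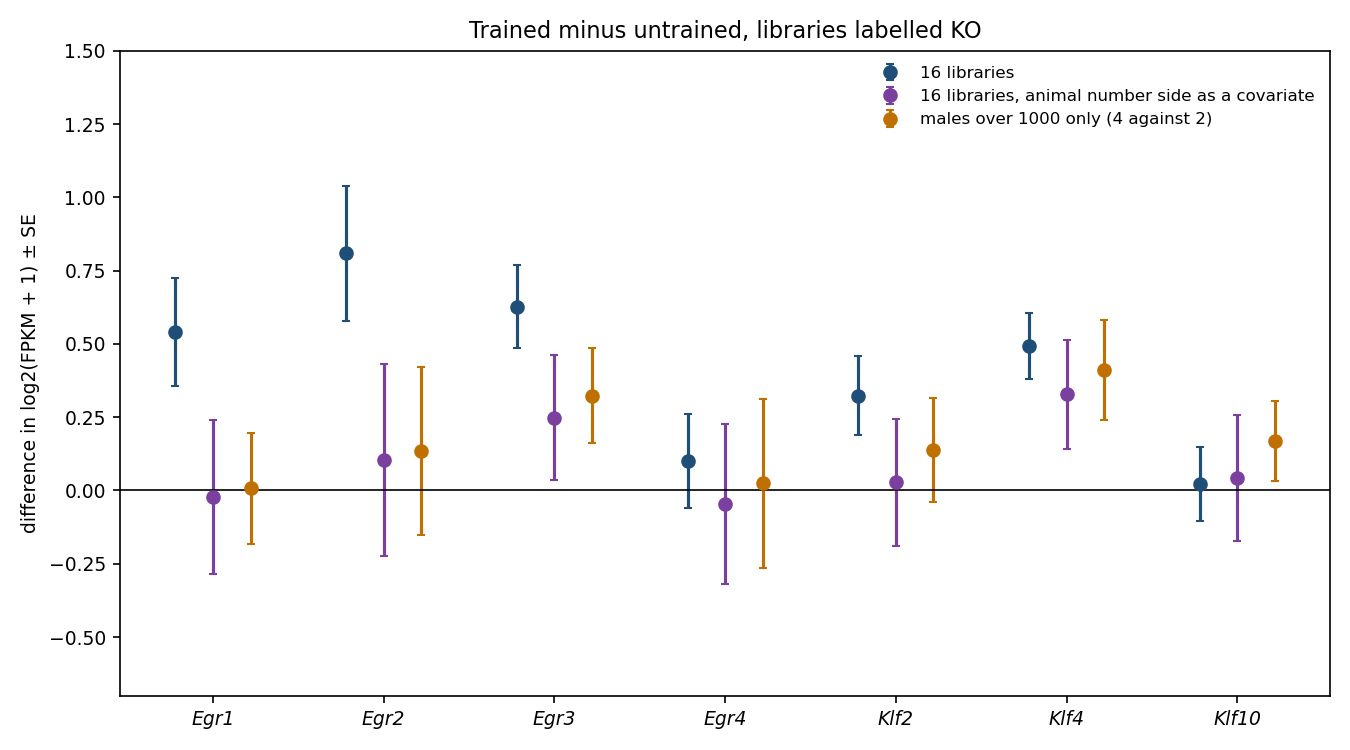
Difference in log2(FPKM + 1) between trained and untrained libraries labelled KO (y axis, points with SE) for the 7 genes (x axis), in all 16 libraries, with the side of animal number 1000 as a covariate, and within the males over 1000. The point of Egr1 moves from 0.54 to -0.022 with the covariate, that of Egr2 from 0.81 to 0.10, and that of Klf4 from 0.49 to 0.33. The fit with the covariate and the fit within the males over 1000 rest on the same untrained males.

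The third comparison set the trained arm against the untrained arm labelled WT, which differ in label and in training together. It shares the trained arm with the first comparison, so the values stand side by side and are no repeat of each other. Egr2, Egr3, Egr1 and Klf4 were higher in the trained arm, by 0.64, 0.64, 0.46 and 0.51, and Klf10 was lower, by -0.30. These are 5 of 7 members, 4 higher and 1 lower, against 24.5% of all genes (12.9% higher and 11.5% lower).

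Egr3 was at 28.2, 41.4 and 52.7 FPKM (lowest, median, highest) in the libraries labelled WT, below every trained library. It was the 1 member of 7 whose arms did not overlap in this comparison, as for 1.65% of all genes in that direction, and its adjusted p was 0.000326 (SE 0.101). Klf4 was at 1.47, 1.66 and 2.32 FPKM, and 5 of 8 trained libraries lay above all of these (SE 0.0891, adjusted p = 0.000734). Egr2 was at 4.27, 6.53 and 9.88 FPKM (SE 0.141, adjusted p = 0.00387) and Egr1 at 105, 127 and 189 FPKM (SE 0.108, adjusted p = 0.00551). For Egr1, Egr2, Egr4, Klf2 and Klf4 the top value of the WT arm was that of male 1, the only animal labelled WT with a number over 1000. Egr4 (0.33, SE 0.163, adjusted p = 0.150) and Klf2 (0.22, SE 0.108, adjusted p = 0.137) did not pass. The calls of this comparison were made without the side of 1000. With that side as a covariate, the median of the 7 members fell from 0.46 to -0.052, and 3 of 7 were above 0. Egr1, Egr4 and Klf2 changed sign, to -0.052, -0.062 and -0.16. That fit rests on male 1 labelled WT, since without this animal training and number cannot be told apart there.

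Klf10 was at 13.9, 16.8 and 23.5 FPKM in the libraries labelled WT, and no trained library reached their mean of 18.2 ± 4.22 FPKM (SD, n = 8). The call (SE 0.105, adjusted p = 0.0458) stood in 7 of 16 fits that left out 1 library, each of them without a male, and was lost in the other 9, with an adjusted p of up to 0.0991. The height of the WT arm came from its females, at 21.8 ± 2.50 FPKM against 14.6 ± 0.667 FPKM in its males (SD, n = 4 each). Trained females were at 13.3 ± 1.15 FPKM and trained males at 15.5 ± 1.61 FPKM, so only the females had a lower mean than the WT arm's same sex.

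Between the untrained arms, labelled KO against labelled WT, no member passed (0 of 7, against 1.42% of all genes tested). Klf10 was the 1 member below an unadjusted 0.05 (12.7% of all genes), at -0.32 (SE 0.112, adjusted p = 0.228, limma). Egr4 differed by 0.23 (SE 0.163), Egr2 by -0.17 (SE 0.241), Klf2 by -0.099 (SE 0.118), Egr1 by -0.077 (SE 0.191), and Egr3 and Klf4 by 0.014 each (SE 0.164 and 0.0951). The arms overlapped for all 7 members (0.223% of all genes lay wholly higher and 0.278% wholly lower). Leaving out untrained male library 3 moved Egr1 to 0.053, Egr2 to -0.041 and Egr3 to 0.14.

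**Figure D3:**
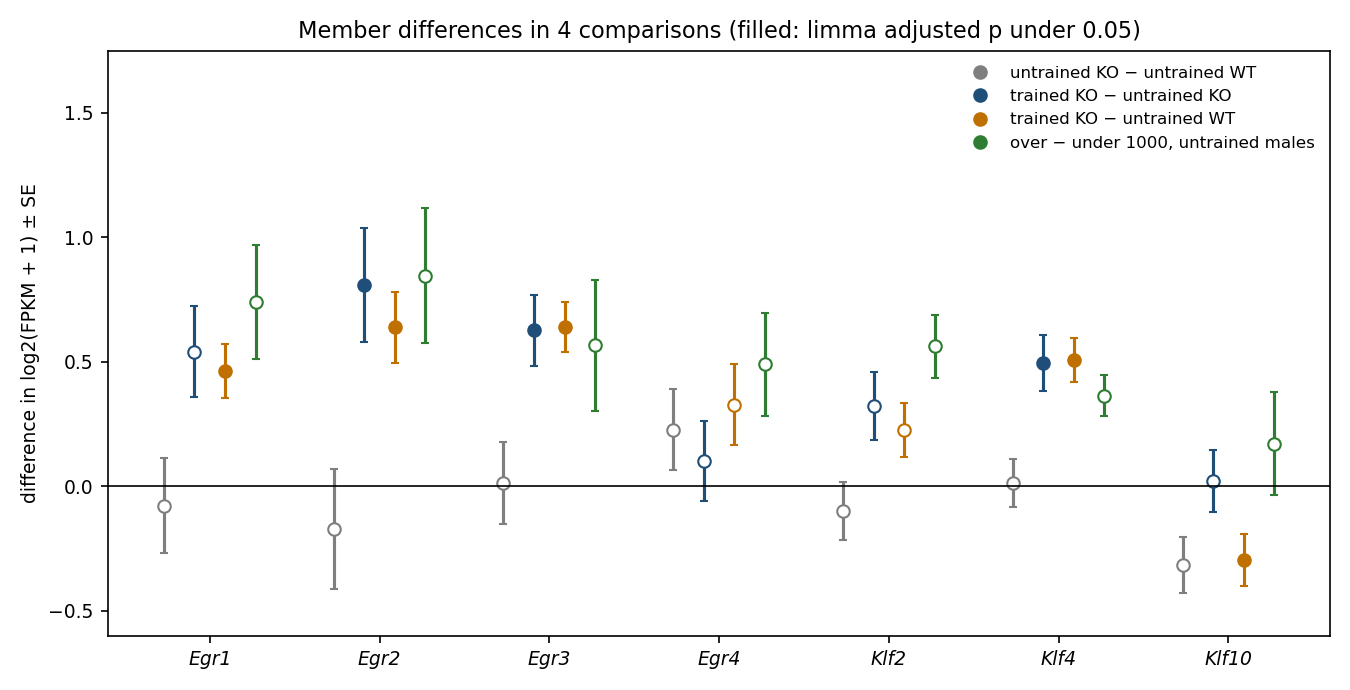
Difference in log2(FPKM + 1) with its SE (y axis) for the 7 genes (x axis) in 4 comparisons; filled points have a limma adjusted p under 0.05. Filled points are Egr2, Egr3 and Klf4 for trained against untrained libraries labelled KO, and Egr1, Egr2, Egr3, Klf4 and Klf10 where the trained arm is set against the WT label.

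Some pairs of members correlated among animals of the same group, although few did so within one side of animal number 1000. After subtraction of the mean of each arm and sex, Pearson's r over the 24 libraries ran from 0.0918 to 0.903 over the 21 pairs of members, with a median of 0.535. A permutation test within groups (2-sided, 100000 resamples, Benjamini-Hochberg over the 21 pairs) put 9 pairs past 0.05, and 13 pairs by Spearman's rho. Egr1 and Egr2 were closest, with r = 0.903 (permutation p = 5e-05, adjusted p = 0.00105), rho = 0.822 (permutation p = 8e-05, adjusted p = 0.00152) and r = 0.833 without the 2 libraries farthest from the median of Egr1. Egr2 with Egr4 had r = 0.762 and rho = 0.777 (permutation p = 0.00012 and 0.00016, adjusted p = 0.00126 and 0.00152), and r = 0.749 without the 2 farthest libraries. Egr1 with Egr3 had r = 0.771 and rho = 0.621 (permutation p = 0.00103 and 0.00397, adjusted p = 0.00433 and 0.0119), and this fell to r = 0.511 without them. Egr2 with Klf10 had r = 0.755 and rho = 0.745 (permutation p = 0.0003 and 0.00025, adjusted p = 0.00173 and 0.00152), and r = 0.565 without them.

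Klf2 and Klf4 had r = 0.584 and rho = 0.636 (permutation p = 0.011 and 0.00675, adjusted p = 0.0289 and 0.0155), and r = 0.548 without the 2 farthest libraries. By Pearson's r, Egr3 passed with Egr1 alone and Klf2 with Klf4 alone, and by Spearman's rho Egr3 passed with Egr1 alone and Klf2 in 4 pairs. The number of pairs past 0.05 was 7 to 12 when each library was left out in turn, and 7 without untrained male library 3 or without male 1 labelled WT. Within one side of 1000 most pairs did not pass: 1 of 21 did in the 13 animals under 1000 (median r = 0.217) and 0 in the 10 over 1000 that share a group with another (median r = 0.510). Egr1 with Egr2 had r = 0.829 and rho = 0.742 in the former (permutation p = 0.0215 and 0.0401, adjusted p = 0.0978 and 0.169), and r = 0.930 and rho = 0.939 in the latter (permutation p = 0.00243 for both, adjusted p = 0.051). The pair that passed was Egr2 with Egr4, at r = 0.794 and rho = 0.736 (permutation p = 0.00117 and 0.00261, adjusted p = 0.0246 and 0.0548). Klf2 with Klf4 did not pass on either side: under 1000 it had r = 0.512 and rho = 0.253 (permutation p = 0.195 and 0.502, adjusted p = 0.512 and 0.842), and over 1000 r = 0.324 and rho = 0.321 (permutation p = 0.411 and 0.443, adjusted p = 0.576 and 0.621). Without the 2 farthest libraries, r was 0.696 for Egr1 with Egr2 and 0.732 for Egr2 with Egr4 under 1000, and 0.923 for Egr1 with Egr2 over 1000.

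**Figure D4:**
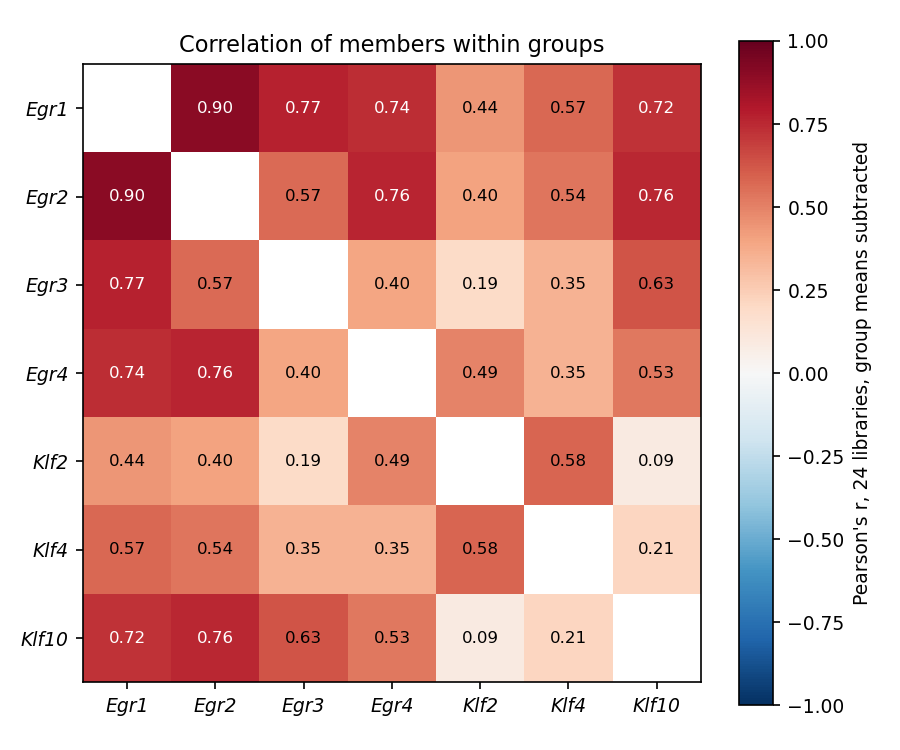
Pearson's r between members over 24 libraries after the mean of each arm and sex was subtracted (colour scale from -1 to 1; both axes list the 7 genes). The highest value is 0.90 for Egr1 with Egr2 and the lowest 0.09 for Klf2 with Klf10.

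The genes most like each member were found by Pearson's r of log2(FPKM + 1) over the 24 libraries, as a description that includes the differences between arms and shared depth; the value after subtraction of group means follows each. Egr1 and Egr2 were nearest to each other of all genes tested (r = 0.941). Beside the members, Egr1 was most like Arc (0.904, 0.866 after subtraction), which encodes a synaptic protein made on activity, Spry2 (0.894, 0.885), an inhibitor of growth factor signalling, and Fos (0.891, 0.835). Egr2 was most like Fos (0.937, 0.924), Nr4a1 (0.924, 0.922) and Arc (0.904, 0.872). Egr3 was most like Dnajb5 (0.935, 0.903), a chaperone of the Hsp40 kind, Etv5 (0.903, 0.865), an ETS factor, and Fmnl1 (0.889, 0.886), a formin. Egr4 was most like Vgf (0.823, 0.794), a secreted neuropeptide precursor, Phlda1 (0.820, 0.811) and Mesdc1 (0.784, 0.802).

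The Klf genes had other neighbours. Klf4 was most like Ly6c1 (0.868, 0.617 after subtraction), Ly6a (0.829, 0.565) and Ubac1 (0.816, 0.629). Klf2 was most like Dmpk (0.751, 0.725), a kinase, Cldn5 (0.739, 0.679), the tight junction protein of brain endothelium, and Ppp1r12c (0.729, 0.641). Klf4 was the member nearest to Klf2 (r = 0.701), behind the 3 genes just named, while Egr2 was the member nearest to Klf4 (r = 0.735). Klf10 was most like Akap7 (0.867, 0.802), Zfp459 (0.838, 0.821) and Syt16 (0.836, 0.868), and no other member exceeded r = 0.175 with it over the 24 libraries as they stand, against r = 0.755 with Egr2 once group means were subtracted.

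Other genes around these factors were read from lists, with the tests over all genes. Of 30 other immediate-early genes tested (33 listed), 8 passed in trained against untrained libraries labelled KO, all higher (3.5% of all genes were), with a list median of 0.43 against 0.0065 for all genes. Those with the smallest p were the orphan receptors Nr4a3 (0.56) and Nr4a2 (0.55), the activin subunit Inhba (0.62) and the pentraxin Nptx2 (0.66). Against the libraries labelled WT 16 passed, all higher (12.9% of all genes were; median 0.33), with Nptx2 (0.56), Nr4a3 (0.71), Fosb (0.74) and Nr4a2 (0.88) by smallest p. Between the untrained arms 0 passed, and 2 had an unadjusted p under 0.05, against 12.7% of all genes. Between untrained males over and under 1000 also 0 passed, with a list median of 0.36. There 11 had an unadjusted p under 0.05, all higher, against 3.25% of all genes. With the side of 1000 as a covariate, the median in trained against untrained libraries labelled KO was -0.0092 and 14 of 30 were above 0, against a median of 0.043 and 5 of 7 for the members. The 4 genes named first did not pass there, with Inhba at 0.70, Nptx2 at 0.53, Nr4a3 at 0.31 and Nr4a2 at 0.24 (adjusted p-values of 0.274, 0.443, 0.484 and 0.639).

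Of 11 other Klf factors tested (14 listed), 0 were called higher and 2 lower in trained against untrained libraries labelled KO, where 2.17% of all genes were lower: Klf15, a factor of glucocorticoid and fasting responses, by -0.37 (SE 0.0800, adjusted p = 0.0152), and Klf5, by -0.25 (SE 0.0603, adjusted p = 0.0236). Klf15 was at 9.39 ± 0.860 FPKM in trained and 12.5 ± 1.70 FPKM in untrained libraries labelled KO (SD, n = 8 each), and 0 of 8 trained libraries exceeded the untrained mean. Against the libraries labelled WT these genes (-0.42 and -0.23) and Klf11 (-0.38) were lower, 3 of 11 where 11.5% of all genes were. Counted in either direction, 3 of 11 is near the 24.5% of all genes called there and so no result about the list. With the side of 1000 as a covariate Klf15 stood at -0.37 and Klf5 at -0.36, with adjusted p-values of 0.386 and 0.260. Klf9, at 51.0 to 74.8 FPKM, was the most abundant Klf gene and did not pass.

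Of 24 corepressors and upstream regulators of the Egr genes, 1 passed in trained against untrained libraries labelled KO, Mef2a, at -0.20 (SE 0.0537, adjusted p = 0.0423). This share is near the 5.67% of all genes called there and so no result about the list. Against the libraries labelled WT 2 were higher and 5 lower, a share near the 24.5% of all genes called there and so no result about the list, among them Srf, the serum response factor gene, at 0.28, Mef2a at -0.25, the kinase gene Camk4 at -0.34 and Mef2c at -0.20. Of 9 reported Egr targets tested (12 listed), 0 passed in trained against untrained libraries labelled KO (1 at an unadjusted p under 0.05, against 23.8% of all genes). Against the libraries labelled WT 2 of 9 passed, again near the share of all genes, Arc higher by 0.78 and the GABA receptor subunit gene Gabra4 lower by -0.15. Of 7 reported Klf2 and Klf4 targets in endothelium tested (10 listed), 0 passed in trained against untrained libraries labelled KO (2 at an unadjusted p under 0.05, against 23.8% of all genes). Thbd, which encodes the anticoagulant thrombomodulin, and Nos3, the endothelial nitric oxide synthase gene, were higher than in the libraries labelled WT, by 0.85 and 0.22 (2 of 7, where 12.9% of all genes were higher). Counted in either direction, 2 of 7 is near the 24.5% of all genes called there and so no result about the list. Of 7 genes of the early TGF-beta response tested (10 listed), 0 passed in the first and 1 in the second of these comparisons, Id1 at 0.27. That share is near the 12.9% of all genes that were higher. None of these lists had a gene that passed between the untrained arms or by animal number (1.42% and 0% of all genes did).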

How the data were processed

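The labels' protocols name a stranded mRNA kit; the submitters' processing notes name FastQC 0.11.7, Trimmomatic 0.38, STAR 2.5.3a, featureCounts, Subread 1.6.3 and build mm10. The authors deposited FPKM for 15232 genes (24 given as dates), and their gene filter is not given in the sources used here. Reads recovered from the FPKM were whole within 0.01 read for 99.985% of values. Their number speaks to counting error, not to the spread between animals. Genes with a mean of at least 1 FPKM were tested on the log2(FPKM + 1) scale by limma 3.58.1 under R 4.3.3 (eBayes with trend, Benjamini-Hochberg, threshold 0.05), on the arms compared, with sex, or genotype label for animal number, as a covariate, and tested on simulated data. Python 3.11.15 with numpy 2.4.6, pandas 2.3.3, scipy 1.17.1 and matplotlib 3.10.9 was used for the rest. Libraries are separate animals. Named were all members, per list and comparison at most 4 passing genes of smallest p, and per member the 3 most alike genes. Members and lists were chosen with earlier results of these data known. Alternatives covered scaling, filter, pseudocount, covariates and each library left out; a GC and length correction over 20 bins each, 1 fit of animal number without a library, and correlations within either side of 1000 were chosen after seeing the data.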

Additional observations from a re-analysis of the deposited data

Results flagged for a closer look

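Of 42 highest and lowest values in 21 groups (7 genes in 3 arms of 8 libraries), 3 lay farther from their neighbours than Dixon's 95% critical value allows, where chance gives about 1.05 groups. Egr2 was at 14.8 FPKM in untrained male 1 labelled KO, with the next library of that arm at 8.50 FPKM. Klf2 was at 3.76 FPKM in untrained male 1 labelled WT, with the next at 2.57 FPKM, and Klf4 was at 2.32 FPKM in the same library, with the next at 1.87 FPKM. Both animals had numbers over 1000. No cause was tested.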

How the results depend on the processing

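Egr3 and Klf4 kept their call in trained against untrained libraries labelled KO under each library left out. Of the other alternatives, Egr2 lost its call under 9 of 16, Egr3 under 4 of 16 and Klf4 under 4 of 15, and Egr1 passed under 2, 1 fit of all 24 libraries and array weights. With the side of 1000 as a covariate, with that covariate and without untrained male library 3, and within males over 1000, 0 members and 0 genes passed; there Egr1 was at -0.022 and Egr4 at -0.046 with the covariate, and Egr4 at -0.014 without that library as well. Klf10 was at -0.11 with array weights and -0.013 with equal sums per library. Genes called there numbered 713 in the fit reported, 1238 when 1 fit held all 24 libraries, 2020 under array weights, 422 without the sex covariate, and 330 (without untrained female 1) to 945 (without trained male 4) with 1 library left out, where Klf10 ran from -0.091 to 0.061.

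Against the libraries labelled WT, 3 members passed when 1 fit held all 24 libraries. With the covariate, in a fit that rests on male 1 labelled WT, Egr1, Egr4 and Klf2 were at -0.052, -0.062 and -0.16. The median of the 7 members there was -0.052, against 0.46 without the covariate. Between untrained arms 179 genes were called, 297 with array weights, 98 without the sex covariate, and 115 (without WT female 3) to 340 (without KO male 3) with 1 library left out. There Egr3 and Klf4 were at -0.057 and -0.030 with the covariate and -0.081 and -0.027 in animals under 1000, Klf4 was at -0.021 by voom on recovered reads, and with 1 library left out Egr1 ran from -0.19 to 0.053, Egr3 from -0.093 to 0.14 and Klf4 from -0.042 to 0.056. By animal number 1 gene passed with all 24 libraries and 2 with array weights, and Klf10 ran from -0.070 to 0.39.

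Where genotype label and sex interact, Klf4 was at 0.083 with array weights, 0.022 with equal sums and 0.0034 with GC and length correction, and with 1 library left out ran from -0.098 to 0.12, and Egr3 from -0.10 to 0.40. For that of training and sex 1 gene was called, 1132 with array weights, 86 with quantile normalization, 22 at a mean of at least 5 FPKM, 15 with median-ratio scaling, 13 with a pseudocount of 0.1, 8 with GC and length correction, 4 with equal sums, 4 by voom and 0 to 194 with 1 library left out, 194 being without KO male 3; Egr3, Egr4 and Klf4 were at -0.26, -0.12 and -0.026 with array weights, and Egr3 ran from -0.23 to 0.27.

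Of the 21 pairs of members 9 correlated past 0.05, 1 in animals under 1000 and 0 in those over 1000, with fewer libraries. Replicate numbers in the titles name different animals, and the deviations of same-numbered libraries correlated by 0.025, -0.070 and -0.092 on average in the 3 comparisons of arms, so the numbers were not taken as pairs. With the replicate number as a block, 0 members and 29 genes passed in trained against untrained libraries labelled KO, 2 members and 1614 genes against the libraries labelled WT, 114 genes between untrained arms and 0 genes for training and sex, where Egr3 was at -0.0099. Block fits with the trained arm also left out female 4 of both arms, as the title of trained female 4 gives no replicate number. The cause of these changes was not tested. Klf2 and Klf4 rest on the fewest reads, 35 to 161 and 57 to 212 per library.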
